A study of Mus musculus with 10 samples.

Results

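The genes described here are nucleolar ribosome biogenesis genes, found by symbol. A gene is a member where the symbol that the array's probe table gives it begins with Nop, Nol, Utp, Rrp or Exosc and a digit, or with Polr1, or is one of the single names Ppan, Bop1, Pes1, Fbl, Ncl, Npm1, Nolc1, Nat10, Wdr12, Wdr43, Gnl2, Gnl3, Imp3, Imp4, Rrs1, Nip7 and Odc1. The rule found 50 genes among the 18300 genes with probes, and genes are called here by their current names, so that Nol1 of the table is Nop2, Nol5 is Nop58, Nol5a is Nop56 and Utp11l is Utp11. Of the 50, 47 have a role in ribosome production. The other members are Odc1, the ornithine decarboxylase that opens polyamine synthesis, Nol3, whose product restrains apoptosis, and Nol4, and they are kept since the rule names them.

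The study asked how prostaglandin E2 (PGE2), a lipid mediator of inflammation, acts on B cells through Ptger4, which encodes one of its receptors. B cells were isolated with a magnetic kit from the spleens of female mice 2 months old, either Ptger4+/+ or Ptger4-/-, and cultured in IMDM medium. In each genotype there were cells kept 2 h in medium, cells given F(ab')2 fragments of anti-IgM antibody for 2 h, cells given anti-IgM for 24 h, and cells given anti-IgM with PGE2 for 24 h, which makes 8 groups of cells; anti-IgM cross-links the B cell receptor. Amplified RNA of groups was compared in pairs on 10 two-colour oligonucleotide arrays, with 2 dye-swapped arrays for each of 5 comparisons. All groups at 24 h had anti-IgM, so no comparison there is against resting cells. The labels do not tell how the Ptger4-/- mice were made, how many animals gave cells, which doses were used, or whether swapped arrays carried the same extracts. The p-values may therefore cover technical spread alone.

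Ribosomes are assembled mostly in the nucleolus, where RNA polymerase I transcribes a long ribosomal RNA precursor. Small nucleolar ribonucleoproteins (snoRNPs) modify this precursor, the small subunit processome folds and cuts the part that becomes the small (40S) subunit, a series of assembly factors builds the large (60S) subunit, and the RNA exosome trims and degrades the spacers. Lymphocytes that leave rest grow before they divide and make more ribosomes as they do so, and many of these genes are known targets of the growth-promoting transcription factor Myc.

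Myc with its partner Max is known to bind the E-box letters CACGTG, and promoters of members that hold these letters are shown so that the sequence can be set beside the values that follow. RefSeq promoter windows (mouse build GRCm38.p6, 250 bases before to 50 after the annotated start) were matched for 37 of the 50 members. That is 74% of them, under the 80% set as a minimum, so the share over the set is not interpreted. The palindrome CACGTG was found in 8 of the 37 windows, and 8.09% of the windows of 27025 mouse genes hold it. The related letters CACGCG, or CGCGTG on the other strand, were in 11 of the 37 and in 10.5% of all windows; Pes1 holds both motifs. A match is a description of letters and not of binding. The 250 bases before the start are printed 5′ to 3′ on the gene's strand, with CACGTG in capitals, for Nop2 (chr6:125131633-125131882, plus strand, its first base at -60 from the start), Utp18 (chr11:93885767-93886016, minus strand, -20), Nol11 (chr11:107189382-107189631, minus strand, -43) and Exosc5 (chr7:25658903-25659152, plus strand, -44). The first 3 belong to genes that rose with anti-IgM in both genotypes, and the last to a gene that was called in no comparison.
Nop2: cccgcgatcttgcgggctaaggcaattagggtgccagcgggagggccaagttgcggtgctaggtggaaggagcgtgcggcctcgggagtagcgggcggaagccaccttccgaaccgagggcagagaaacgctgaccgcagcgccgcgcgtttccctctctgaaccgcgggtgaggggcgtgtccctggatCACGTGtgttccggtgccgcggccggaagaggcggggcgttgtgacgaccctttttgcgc
Utp18: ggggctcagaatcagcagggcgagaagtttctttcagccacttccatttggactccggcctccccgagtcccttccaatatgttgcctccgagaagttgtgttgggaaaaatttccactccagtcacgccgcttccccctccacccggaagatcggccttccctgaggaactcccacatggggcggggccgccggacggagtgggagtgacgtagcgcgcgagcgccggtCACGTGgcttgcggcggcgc
Nol11: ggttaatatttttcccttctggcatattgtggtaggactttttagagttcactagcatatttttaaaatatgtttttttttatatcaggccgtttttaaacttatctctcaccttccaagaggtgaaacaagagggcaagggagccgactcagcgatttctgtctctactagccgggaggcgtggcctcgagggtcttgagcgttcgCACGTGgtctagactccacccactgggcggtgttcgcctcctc
Exosc5: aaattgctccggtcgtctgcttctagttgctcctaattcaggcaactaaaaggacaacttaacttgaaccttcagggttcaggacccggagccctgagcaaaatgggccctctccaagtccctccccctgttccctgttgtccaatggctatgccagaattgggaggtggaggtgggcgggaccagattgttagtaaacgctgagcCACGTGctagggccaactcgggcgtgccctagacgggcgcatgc

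Values are log2 ratios, in which 1 is a 2-fold difference. They are given for both arrays of a comparison and then as their mean (n = 2 arrays) ± the standard error of the limma fit. That error comes from the gene's spread over the arrays of all comparisons, beside a dye effect, and in part from other features. It is the same for a gene in each comparison and does not show how closely the 2 arrays printed with it lie. A gene is called where its limma p, adjusted by Benjamini-Hochberg over all 22533 features, is under 0.05, and "rose" or "fell" is used of called genes. The log base and the direction of the deposited ratios are not stated. They were read as log2 of Cy5 over Cy3, since of 15 immediate-early genes 8 were then at least 2-fold higher and 0 at least 2-fold lower on both anti-IgM arrays of each genotype. The direction is therefore likely and not certain, and a reversal would turn every sign below together. A ratio holds no level, so members could not be ranked by abundance, and the cells could not be checked by the presence of B cell markers. Fewer cells of a type and less RNA per cell cannot be told apart. Of 8 B cell markers, 4 fell and 1 rose with anti-IgM in each genotype, with Cd79b, a subunit of the B cell receptor, at -2.20 and -2.51. Of 31 markers of T cells, NK cells, myeloid cells, platelets and red cells, 4 rose and 2 fell with anti-IgM in Ptger4+/+ cells, 3 and 3 in Ptger4-/- cells. Over all features 9.71% were called higher and 11.4% lower in Ptger4+/+ cells, and 11.6% and 11.7% in Ptger4-/- cells. The counts of the 31 markers lay near these shares. The part of the markers in the members' values was not tested. The Ptger4 probe gave no sign of the deletion, with 0.91 ± 0.07 and 0.56 ± 0.07 under anti-IgM in Ptger4+/+ and Ptger4-/- cells and 0.49 ± 0.07 in Ptger4-/- over Ptger4+/+ cells. Since the place of that probe in the gene is not known here, it checks nothing.

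Anti-IgM for 2 h raised most of the nucleolar genes in Ptger4+/+ cells. Of the 50 members 37 rose and 1 fell, while 9.71% of all features were called higher and 11.4% lower. The median member stood at 0.67, with members from -0.28 to 1.61, against a median near 0 over all features, and 13 members were at least 2-fold higher on both arrays (1.02% of all features). The 2 arrays gave the same picture: 45 members were above 0 on both and 1 was below 0 on both, where 28.0% of all features were above and 27.3% below. The largest rises were spread over 60S assembly, the processome and Ncl. The count of rises stayed between 30 and 40 in the 10 fits that left out 1 array each.

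**Figure D1:**
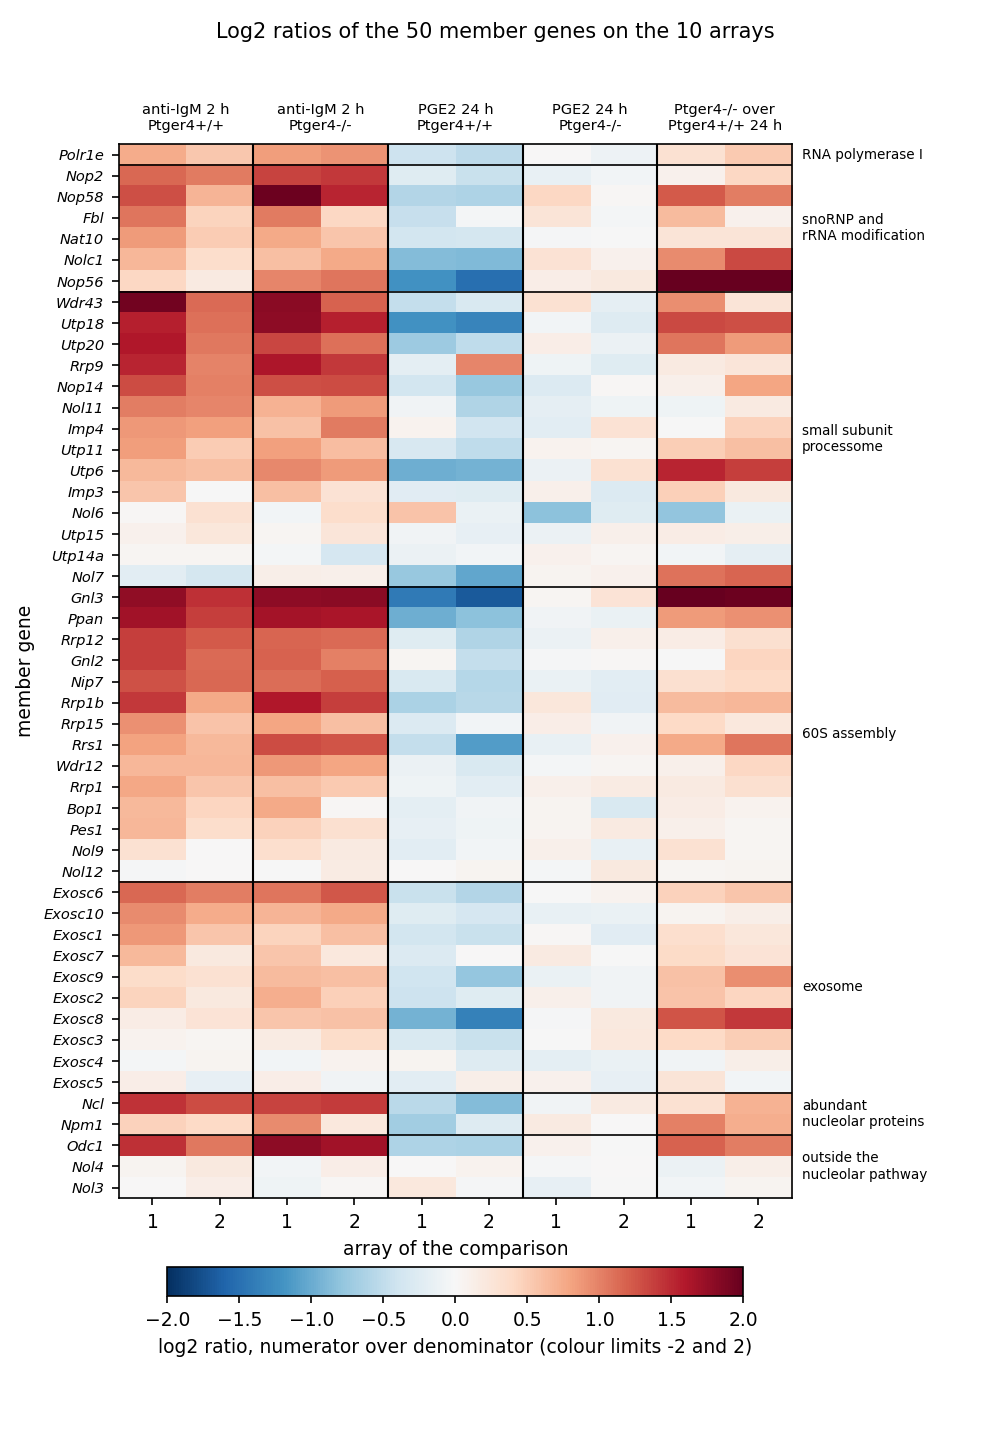
Log2 ratios of the 50 members (rows, grouped by role and ordered within a role) on the 10 arrays (columns, 2 for each of the 5 comparisons); the colour scale stops at -2 and 2, so that Nop56 and Gnl3 in the last comparison are drawn at or near its end. The anti-IgM columns are mostly red in both genotypes, the PGE2 columns mostly blue in Ptger4+/+ cells and pale in Ptger4-/- cells, and the genotype columns mostly red.

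Factors that build the 60S subunit were the most uniform of the larger classes, with 13 of 14 rising in Ptger4+/+ cells. Gnl3, which encodes nucleostemin, a GTP-binding protein of the nucleolus, read 1.77 and 1.45 on the arrays, a mean of 1.61 ± 0.10 (limma adjusted p = 3.47e-05). Ppan, an assembly factor of the large subunit, read 1.68 and 1.39, a mean of 1.53 ± 0.06. Rrp12, needed for nuclear export of pre-ribosomes in yeast, read 1.39 and 1.23 and stood at 1.31 ± 0.09. Gnl2, a GTPase of late nuclear 60S assembly, was at 1.26 ± 0.14 and Nip7 at 1.22 ± 0.07. All of these were above 2-fold on each array. The Pes1, Bop1 and Wdr12 proteins form 1 complex needed for the large ribosomal RNAs, and their genes rose by similar amounts, Wdr12 reading 0.67 on both arrays, Pes1 0.66 and 0.35, and Bop1 0.65 and 0.43. Rrp1, Rrp1b, Rrp15 and Rrs1 lay between 0.66 and 1.08. Nol9, a kinase of ribosomal RNA processing, rose least, at 0.16 ± 0.04 with 0.31 and 0.01 on the arrays, and kept its call in 2 of the 10 fits that left out an array; Nol12 at -0.01 ± 0.06 did not pass. Nol9 and Rrp15 have probes that disagree: 1 Nol9 probe was at 0.48 and called and the other at -0.16 and not called, and 1 Rrp15 probe was at 1.33 and called and the other at 0.15 and not called.

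In the small subunit processome 9 of 14 members rose and Nol7 fell in Ptger4+/+ cells. Wdr43, one of the proteins that join the precursor while it is transcribed, read 1.92 and 1.14, a mean of 1.53 ± 0.10. Utp18 read 1.55 and 1.10, a mean of 1.33 ± 0.09, and Utp20, a large scaffold protein, 1.60 and 1.05, a mean of 1.32 ± 0.07. Rrp9, a protein of the U3 snoRNP that guides the first cuts, read 1.52 and 1.00, a mean of 1.26 ± 0.18. On each of these genes array 1 was the higher and the lower array was at about 2-fold. Nop14 stood at 1.16 ± 0.15, Nol11 at 1.00 ± 0.09, Imp4, a partner of Imp3 in the U3 particle, at 0.84 ± 0.09, Utp11 at 0.67 ± 0.09 and Utp6 at 0.62 ± 0.09. Imp3 at 0.27 ± 0.09, Nol6 at 0.17 ± 0.08, Utp15 at 0.15 ± 0.05 and Utp14a at 0.04 ± 0.06 did not pass. Nol7 was the sole member to fall, with -0.21 and -0.36 on the arrays and a mean of -0.28 ± 0.07 (limma adjusted p = 0.0253), and it lost its call in 1 of the 10 fits that left out an array, the one without replicate 2 of this comparison.

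Of the snoRNP and ribosomal RNA modification genes 5 of 6 rose in Ptger4+/+ cells. Nop2, a cytosine methyltransferase of the large ribosomal RNA, read 1.15 and 1.03, a mean of 1.09 ± 0.07. Nop58, a core protein of the box C/D snoRNPs, read 1.28 and 0.67, a mean of 0.98 ± 0.10. Fbl, the methyltransferase fibrillarin of the same particles, read 1.08 and 0.44 and stood at 0.76 ± 0.07. The acetyltransferase gene Nat10 was at 0.68 ± 0.07 and the snoRNP chaperone gene Nolc1 at 0.50 ± 0.11. Nop56, which pairs with Nop58 in the particle, read 0.42 and 0.18 and did not pass at 0.30 ± 0.09. Polr1e, a subunit gene of RNA polymerase I, rose by 0.64 ± 0.07. The nucleolar RNA-binding protein nucleolin (Ncl) stood at 1.38 ± 0.09, with 1.45 and 1.30 on the arrays, and the chaperone nucleophosmin (Npm1) at 0.42 ± 0.11.

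Exosome genes moved less evenly. Of 10, 6 rose in Ptger4+/+ cells and the class median was 0.33. Exosc6, a subunit of the ring of the complex, read 1.16 and 1.02, a mean of 1.09 ± 0.06, and Exosc10, a nuclease of the nuclear exosome, read 0.94 and 0.74, a mean of 0.84 ± 0.06. Exosc1, a cap subunit, was at 0.71 ± 0.08, Exosc7 at 0.42 ± 0.06, Exosc9 at 0.34 ± 0.08 and Exosc2 at 0.32 ± 0.04. Exosc3, Exosc4, Exosc5 and Exosc8 were between -0.02 and 0.21 and did not pass. Outside the pathway, Odc1 rose by 1.26 ± 0.07, with 1.47 and 1.06 on the arrays, while Nol3 and Nol4 did not pass at 0.07 ± 0.04 and 0.12 ± 0.06.

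In Ptger4-/- cells anti-IgM raised 41 of the 50 members and lowered 0, or 1 without replicate 1 (11.6% of all features were called higher and 11.7% lower, and 43 members had an unadjusted p under 0.05). Of the 22533 features 7203 had such an unadjusted p. The median member was at 0.72, with members from -0.19 to 1.80, and 17 members were at least 2-fold higher on both arrays, against 1.60% of all features. On both arrays 43 members were above 0 (30.4% of all features) and 1 below 0 (28.3%). All 37 members that rose in Ptger4+/+ cells also rose here. The 4 further calls were Nop56, Exosc3, Exosc8 and Imp3. The same overlap over all features was not counted. Gnl3 led again, with 1.79 and 1.80 on the arrays and a mean of 1.80 ± 0.10 (limma adjusted p = 1.65e-05). Nop58 read 1.96 and 1.53, a mean of 1.74 ± 0.10, and Odc1 1.79 and 1.67, a mean of 1.73 ± 0.07. Utp18 stood at 1.68 ± 0.09, Ppan at 1.64 ± 0.06, Rrp9 at 1.52 ± 0.18 and Wdr43 at 1.49 ± 0.10, and Rrp1b read 1.61 and 1.39. These genes were above 2-fold on each array.

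By role, 13 of 14 genes of 60S assembly, 10 of 14 of the processome, 8 of 10 of the exosome and 6 of 6 of the snoRNP and modification class rose in Ptger4-/- cells. Rrs1, an assembly factor that helps bring the 5S ribosomal RNA into the large subunit, read 1.31 and 1.25, a mean of 1.28 ± 0.12. Nop2 was at 1.38 ± 0.07, Ncl at 1.38 ± 0.09, Nop14 at 1.30 ± 0.15 and Utp20 at 1.22 ± 0.07. Among exosome genes Exosc6 led again at 1.16 ± 0.06, followed by Exosc10 at 0.72 ± 0.06, Exosc9 at 0.62 ± 0.08 and Exosc2 at 0.61 ± 0.04. Exosc8, a ring subunit, read 0.55 and 0.59, a mean of 0.57 ± 0.06. Nol7 did not fall here, reading 0.11 and 0.10. Utp14a had the lowest member value, -0.04 and -0.34 on the arrays, and did not pass at -0.19 ± 0.06. Exosc1, Exosc3, Nol9 and Rrp15 each had 1 probe called and 1 not, Exosc3 with 0.54 and -0.01.

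**Figure D2:**
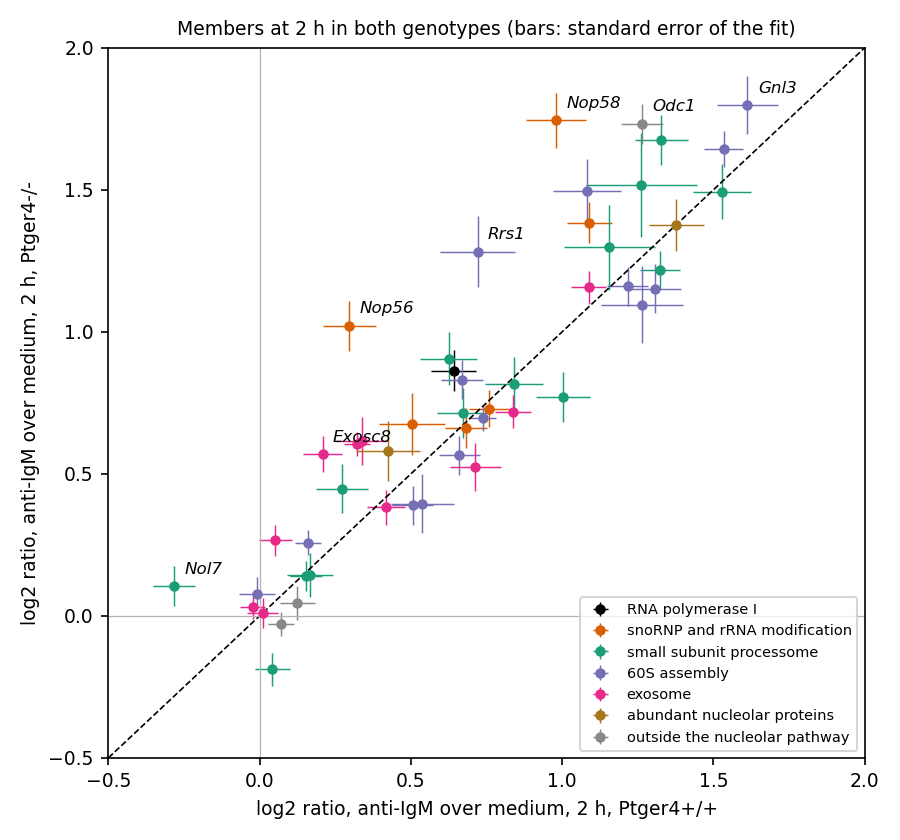
Each point is a member, with its mean log2 ratio of anti-IgM over medium at 2 h in Ptger4+/+ cells (x axis) and in Ptger4-/- cells (y axis), bars of 1 standard error of the fit and colours by role; the dashed line marks equal values. Most points lie near the line, and Nop58, Nop56 and Rrs1 lie above it.

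Set against each other, the anti-IgM responses of the genotypes lay close for most members. The median difference, Ptger4-/- minus Ptger4+/+, was 0.06, with 27 of 50 members above 0. Limma called 2 members higher and 0 lower, where 1.13% and 0.608% of all features were called. Both were core proteins of the box C/D snoRNP. An unadjusted p under 0.05 was found for 12 members and for 3009 of the 22533 features. Nop58 differed by 0.76 ± 0.14 (limma adjusted p = 0.0494), with 1.28 and 0.67 in Ptger4+/+ against 1.96 and 1.53 in Ptger4-/- cells. Nop56 differed by 0.72 ± 0.12 (limma adjusted p = 0.0423), with 0.42 and 0.18 against 0.97 and 1.07. Of the 10 fits that left out an array each, Nop56 kept its call in 3 and Nop58 in 2, and the count was 0 without either Ptger4-/- anti-IgM array, without replicate 2 of the Ptger4+/+ ones, and without any one array of the genotype or the Ptger4-/- PGE2 comparison. Rrs1 at 0.56 ± 0.18, Odc1 at 0.47 ± 0.10, Nol7 at 0.39 ± 0.10 and Exosc8 at 0.36 ± 0.09 did not pass. For Gnl3 the difference was 0.19, with a 95% interval from -0.15 to 0.52, and for Ncl it was 0.00 with an interval from -0.31 to 0.30.

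PGE2 added to anti-IgM for 24 h lowered the nucleolar genes in Ptger4+/+ cells. Of the 50 members 32 fell and 0 rose, where 17.0% of all features were called lower and 9.11% higher. An unadjusted p under 0.05 was found for 36 members and for 8615 of the 22533 features. The median was -0.37, with members from -1.55 to 0.39, against 0.01 over all features. On both arrays 40 members were below 0 and 2 above 0, where 28.8% of all features were below and 29.9% above. Of the 37 members that rose with anti-IgM at 2 h in these cells, 28 fell with PGE2, which is 75.68% of the rises and 87.5% of the falls. Over all features the overlap was 1228, which is 56.12% of the rises and 32.02% of the falls, and no test was made of the overlap. The 4 falls without such a rise were Exosc3, Exosc8, Nol7 and Nop56. The count of falls was 14 without replicate 2 of this comparison, 1 member rose without its replicate 1 or without either Ptger4+/+ anti-IgM array, and 14 of the 32 calls held in all 10 fits that left out an array.

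The falls were led by genes of different steps. Gnl3 read -1.42 and -1.68, a mean of -1.55 ± 0.10 (limma adjusted p = 1.16e-04), and Nop56 -1.21 and -1.51, a mean of -1.36 ± 0.09. Utp18 read -1.21 and -1.32, a mean of -1.26 ± 0.09. Those 3 were at least 2-fold lower on both arrays, where 0.661% of all features were. Exosc8 read -0.94 and -1.35, a mean of -1.15 ± 0.06, the next in size. Utp6, a processome protein, read -0.97 and -0.95, a mean of -0.96 ± 0.09, and Nol7 -0.75 and -1.04, a mean of -0.90 ± 0.07. Of the 60S class Ppan read -0.97 and -0.82, a mean of -0.90 ± 0.06, and Rrs1 -0.47 and -1.11, a mean of -0.79 ± 0.12, so that the 2 arrays of Rrs1 were far apart. Rrp1b stood at -0.60 ± 0.11, and Nip7, Rrp12 and Rrp15 also fell, between -0.44 and -0.16, though Rrp15 kept its call in 2 of the 10 fits that left out an array. The remaining 7 of this class, among them Pes1, Bop1 and Wdr12 at -0.13, -0.13 and -0.21, did not pass, although 13 of the 14 had risen with anti-IgM.

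All 6 genes of the snoRNP and modification class fell with PGE2 in Ptger4+/+ cells. Nolc1 read -0.87 and -0.88, a mean of -0.88 ± 0.11, and Nop58 -0.59 and -0.61, a mean of -0.60 ± 0.10. Nat10 at -0.36 ± 0.07, Nop2 at -0.35 ± 0.07 and Fbl at -0.25 ± 0.07 fell less, and Fbl read -0.46 on 1 array and -0.03 on the other. Beside Utp18, Utp6 and Nol7, the processome genes Utp20 at -0.62 ± 0.07, Nop14 at -0.56 ± 0.15, Utp11 at -0.41 ± 0.09, Wdr43 at -0.39 ± 0.10 and Nol11 at -0.34 ± 0.09 fell. Rrp9 had the highest mean of all members, 0.39 ± 0.18, from arrays that disagreed at -0.20 and 0.97, and it did not pass. Nol6 also had arrays of opposite sign, 0.57 and -0.14, and did not pass. The member that rose when some arrays were left out was not the same each time, being Rrp9 or Nol6. Of the exosome genes 7 of 10 fell, with Exosc9 at -0.59 ± 0.08, Exosc6 at -0.51 ± 0.06 and Exosc1 at -0.40 ± 0.08 after Exosc8. Polr1e stood at -0.47 ± 0.07, Ncl at -0.71 ± 0.09, Npm1 at -0.47 ± 0.11 and Odc1 at -0.62 ± 0.07, all called. Probes of Exosc1, Exosc3, Nip7, Nol9 and Rrp15 differed in call here, with Exosc3 at -0.80 and 0.06.

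**Figure D3:**
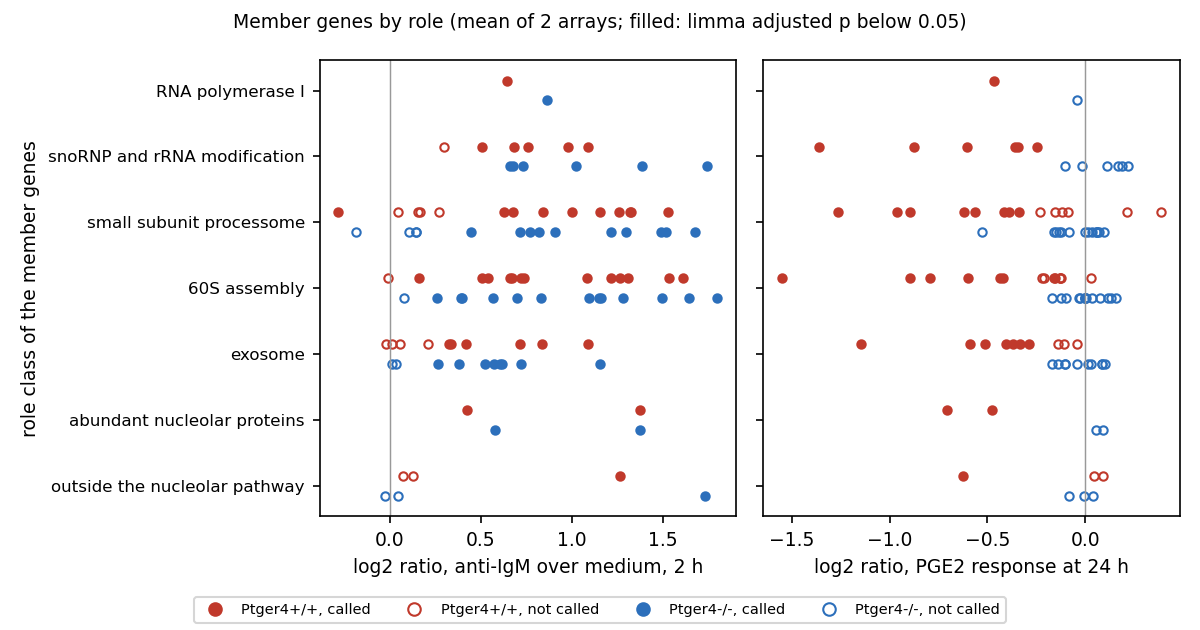
Mean log2 ratios of the members (points) by role class, for anti-IgM over medium at 2 h (left) and for PGE2 with anti-IgM over anti-IgM alone at 24 h (right), in Ptger4+/+ cells (red) and Ptger4-/- cells (blue); filled points passed the limma test. On the left both colours lie mostly above 0 in each class, and on the right the red points reach -1.55 while the blue points lie about 0, with Nol6 lowest at -0.53.

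In Ptger4-/- cells no nucleolar gene was called under PGE2. Of the 50 members 0 rose and 0 fell by limma, where 0.00888% of all features were called higher and 0.138% lower. An unadjusted p under 0.05 was found for 4 members and for 1880 of the 22533 features. The share of members was thus near that of all features. The median was 0.00, with members from -0.53 to 0.22, and 10 members were above 0 on both arrays, 12 below 0 on both and 28 of opposite sign, where 18.6% and 18.9% of all features were above and below on both. The 2 arrays of this comparison correlated at -0.219 over all features once turned by dye, against 0.3787 in Ptger4+/+ cells. Before turning, the sign of the first value is positive, so these arrays went together by dye and not by PGE2. A dye effect is part of the fit. Gnl3 read 0.05 and 0.27, a mean of 0.16 with a 95% interval from -0.08 to 0.40. Nop56 read 0.14 and 0.20, a mean of 0.17 with an interval from -0.04 to 0.37, and Exosc8 -0.02 and 0.19, a mean of 0.08 with an interval from -0.07 to 0.24. These intervals lie far from the values of the same genes in Ptger4+/+ cells. The genes are named for falls there that were among the largest, so the gap follows in part from that choice. The intervals also rest on the spread shared over all 10 arrays, and not on these 2 arrays alone. Nol6 had the largest value, -0.82 and -0.24 on the arrays and a mean of -0.53 ± 0.08 (limma adjusted p = 0.0851). The other 3 with an unadjusted p under 0.05 were Exosc10, Exosc4 and Nip7, between -0.17 and -0.14, and 1 of the 2 Nip7 probes was called lower when probes were tested singly.

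The difference of the PGE2 responses between the genotypes was tested directly. Limma called 19 members higher and 1 lower in Ptger4-/- minus Ptger4+/+ cells, where 9.33% and 3.33% of all features were called. The median difference was 0.34, and 43 of 50 members were above 0. Gnl3 differed by 1.71 ± 0.14 (limma adjusted p = 8.04e-04), Nop56 by 1.53 ± 0.12 and Exosc8 by 1.23 ± 0.09. Utp18 differed by 1.11 ± 0.13, Nolc1 by 1.06 ± 0.15 and Utp6 by 1.05 ± 0.13. In each of these 6 both Ptger4+/+ arrays lay below both Ptger4-/- arrays. They are the largest differences, so this separation follows from their choice, and its share over all features was not counted. Nol7 followed at 0.97 ± 0.10, Nop58 at 0.82 ± 0.14, Ppan at 0.80 ± 0.09 and Rrs1 at 0.76 ± 0.18. Nol6 was the exception at -0.74 ± 0.11 (limma adjusted p = 0.00574), with arrays at 0.57 and -0.14 in Ptger4+/+ and -0.82 and -0.24 in Ptger4-/- cells. By role the higher calls were 3 of 14 in 60S assembly, 4 of 14 in the processome, 5 of 10 in the exosome and 4 of 6 in the snoRNP and modification class, with Polr1e, Ncl and Odc1 besides. The count of higher calls was 8 without replicate 2 and 12 without replicate 1 of the Ptger4-/- comparison, and 12 without replicate 2 of the Ptger4+/+ one. The count of lower calls was 0 without replicate 1 of the Ptger4-/- comparison and 2 without replicate 1 of the Ptger4+/+ one, and 8 of the 20 calls held in all 10 fits that left out an array: Gnl3, Nop56, Exosc8, Utp18, Nolc1, Utp6, Nol7 and Ppan. Those of Fbl, Polr1e and Rrs1 held in 1, 4 and 5 of them.

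**Figure D4:**
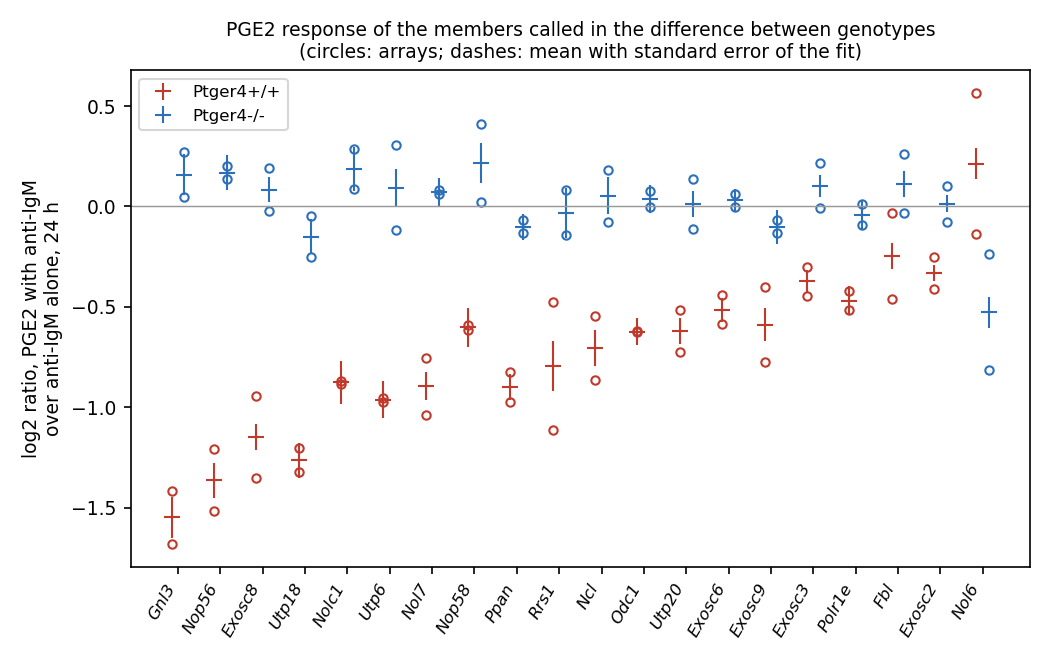
Log2 ratios of PGE2 with anti-IgM over anti-IgM alone at 24 h for the 20 members called in the difference between genotypes, in Ptger4+/+ cells (red) and Ptger4-/- cells (blue); circles are the 2 arrays, and crosses the mean with 1 standard error of the fit. In 19 genes the Ptger4+/+ mean is the lower, from -1.55 in Gnl3, and in Nol6 it is the higher.

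The last comparison set Ptger4-/- directly against Ptger4+/+ cells, both under anti-IgM and PGE2 for 24 h. It shares these 2 groups of cells with the PGE2 comparisons, so its values stand beside theirs and are not a separate test of the same response. Of the 50 members 33 were higher and 1 lower in Ptger4-/- cells, where 15.9% and 11.0% of all features were called. The median was 0.35, with members from -0.46 to 2.25, and 41 members were above 0 and 2 below 0 on both arrays, where 32.5% and 28.7% of all features were. At least 2-fold higher on both arrays were 8 members, against 1.42% of all features. The count of higher members was 18 without replicate 2 of this comparison, and that of lower members 0 without replicate 1. Nop56 read 2.31 and 2.20, a mean of 2.25 ± 0.09 (limma adjusted p = 1.08e-05), and Gnl3 2.14 and 1.96, a mean of 2.05 ± 0.10. Those were the highest member values in any comparison. In the same order of comparisons, Nop56 had 0.30 and 1.02 with anti-IgM and -1.36 and 0.17 with PGE2 in Ptger4+/+ and Ptger4-/- cells.

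By role, 7 of 14 processome genes were higher in Ptger4-/- cells and Nol6 was lower, with -0.80 and -0.13 on the arrays and a mean of -0.46 ± 0.08. Utp6 read 1.52 and 1.38, a mean of 1.45 ± 0.09, Utp18 stood at 1.30 ± 0.09, Nol7 at 1.13 ± 0.07 and Utp20 at 0.97 ± 0.07. Of the exosome 7 of 10 were higher, led by Exosc8 at 1.33 ± 0.06, with 1.26 and 1.41 on the arrays, then Exosc9 at 0.76 ± 0.08, Exosc6 at 0.51 ± 0.06 and Exosc2 at 0.50 ± 0.04. All 6 snoRNP and modification genes were higher, Nolc1 at 1.14 ± 0.11 and Nop58 at 1.12 ± 0.10 next after Nop56. In this class the call of Nop2, at 0.25 ± 0.07, held in 2 of the 10 fits that left out an array. In 60S assembly 9 of 14 were higher, with Rrs1 at 0.92 ± 0.12, Ppan at 0.88 ± 0.06 and Rrp1b at 0.65 ± 0.11 after Gnl3. Odc1 was at 1.10 ± 0.07, Npm1 at 0.87 ± 0.11, Ncl at 0.50 ± 0.09 and Polr1e at 0.41 ± 0.07. Genes that had risen strongly at 2 h did not all differ here: Gnl2 at 0.21 ± 0.14, Rrp12 at 0.23 ± 0.09, Rrp9 at 0.21 ± 0.18, Imp4 at 0.23 ± 0.09 and Nol11 at 0.04 ± 0.09 did not pass. Of the 7 members with several probes, 6 had probes that differed in call, Exosc1, Exosc3, Exosc5, Nip7, Nol9 and Rrp15; the Nip7 probes were at -0.07 and 0.79 and those of Exosc3 at 0.93 and -0.04.

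Across the 5 comparisons 43 of the 50 members were called at least once. The share of all features called at least once was not counted. The 7 called in none were Exosc4, Exosc5, Nol12, Nol3, Nol4, Utp14a and Utp15. The probe table also held genes of the same families under older names, and 14 of them enter when the rule is read on current symbols. Of these 14, 6 rose and 0 fell with anti-IgM in Ptger4+/+ cells, 10 rose and 1 fell in Ptger4-/- cells, 8 fell with PGE2 in Ptger4+/+ cells, 0 were called with PGE2 in Ptger4-/- cells, and 8 were higher and 0 lower in Ptger4-/- than in Ptger4+/+ cells. Over all features 9.71% were called higher and 11.4% lower with anti-IgM in Ptger4+/+ cells, and 11.6% and 11.7% in Ptger4-/- cells. With PGE2 the shares were 9.11% and 17.0% in Ptger4+/+ cells and 0.00888% and 0.138% in Ptger4-/- cells. Between genotypes they were 15.9% and 11.0%. Utp4, a processome protein, had 1.75 ± 0.10 and 2.07 ± 0.10 with anti-IgM and -0.96 ± 0.10 with PGE2 in Ptger4+/+ cells. Nop16, a 60S factor, had 1.58 ± 0.09, 1.90 ± 0.09 and -1.30 ± 0.09. Polr1b, the second largest subunit of RNA polymerase I, had 1.87 ± 0.09, 1.41 ± 0.09 and -0.34 ± 0.09, and -0.04 ± 0.09 between genotypes at 24 h, where it did not pass. Polr1a, its largest subunit, did not pass in any comparison as the mean of 2 probes. Tested singly, 1 of these probes was called higher with PGE2 in Ptger4+/+ cells, at 0.36, and lower between genotypes, at -0.28, against the members' direction. The 1 fall was Nop53 at -0.31 ± 0.08. The symbol Polr1e has also been used for Polr1c, so its probe is named with that reservation.

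Other genes of ribosome production, on a list of 111 of which 102 were measured, moved in the same directions as the members. With anti-IgM 79 rose and 2 fell in Ptger4+/+ cells (median 0.59), and 82 rose and 1 fell in Ptger4-/- cells (median 0.78). Rsl1d1, a nucleolar protein, rose by 1.66 ± 0.07 and Mrto4, a 60S factor, by 1.57 ± 0.11 in Ptger4+/+ cells, and Brix1, also of 60S assembly, by 1.69 ± 0.08 in Ptger4-/- cells. The falls were Taf1b at -0.44 ± 0.07 and Baz2a at -0.30 ± 0.06, the latter known to silence ribosomal RNA genes, and Baz2a again in Ptger4-/- cells at -0.61 ± 0.06. With PGE2 in Ptger4+/+ cells 72 fell and 2 rose (median -0.41), with Brix1 at -1.46 ± 0.08, Senp3, a protease that acts on nucleophosmin, at -1.52 ± 0.07, and Ebna1bp2 as a rise at 0.39 ± 0.06. With PGE2 in Ptger4-/- cells limma called 0 of the 102 in either direction (13 with an unadjusted p under 0.05, beside 1880 of 22533 features). In Ptger4-/- over Ptger4+/+ cells 65 were higher and 3 lower. The list was chosen with earlier results of these data known, so its counts are a description.

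With anti-IgM 9.71% of all features were called higher and 11.4% lower in Ptger4+/+ cells, and 11.6% and 11.7% in Ptger4-/- cells. With PGE2 in Ptger4+/+ cells the shares were 9.11% and 17.0%, in Ptger4-/- cells 0.00888% and 0.138%, and between genotypes 15.9% and 11.0%. Beside these, cytosolic ribosomal protein genes, the structural parts of the ribosome, had few calls at 2 h. Their rises in Ptger4-/- cells, 9.38% of the list, were near the share of all features. Of 64, 1 rose and 3 fell with anti-IgM in Ptger4+/+ cells (median 0.01) and 6 rose and 2 fell in Ptger4-/- cells (median 0.07). At 24 h 21 fell with PGE2 in Ptger4+/+ cells (median -0.23), led by Rpl13 at -1.68 ± 0.09 and Rps3a1 at -1.67 ± 0.07, 0 were called in Ptger4-/- cells (6 with an unadjusted p under 0.05), and 21 were higher in Ptger4-/- than in Ptger4+/+ cells. Ribosomal protein genes have many processed copies, and which copies a probe also reads is not known here. RNA polymerase II and III subunits showed rises and falls together at 2 h: of 12 for polymerase II 7 rose and 2 fell with anti-IgM in Ptger4+/+ cells, and of 9 for polymerase III 2 rose and 1 fell. In Ptger4-/- cells the counts were 6 and 4 for polymerase II and 2 and 1 for polymerase III. With PGE2 in Ptger4+/+ cells 9 of the 12 polymerase II subunits fell and 1 rose (median -0.40), beside 32 of the 50 members, and 8 were higher and 0 lower in Ptger4-/- than in Ptger4+/+ cells (median 0.41). Of the polymerase III subunits 3 fell and 1 rose with PGE2 in Ptger4+/+ cells, and 2 were higher and 1 lower between genotypes. DEAD-box and DEAH-box helicases, of which several act in ribosome assembly, rose in 21 of 48 cases and fell in 5 with anti-IgM in Ptger4+/+ cells, and 18 rose and 2 fell in Ptger4-/- cells. With PGE2 in Ptger4+/+ cells 24 helicases fell and 0 rose (median -0.21), and 21 were higher and 0 lower between genotypes. With PGE2 in Ptger4-/- cells limma called 0 genes of these 3 lists (1, 1 and 3 with an unadjusted p under 0.05). Over all features 1880 of 22533 had such a p in that comparison. Myc itself rose by 2.60 ± 0.04 in Ptger4+/+ and 2.55 ± 0.04 in Ptger4-/- cells. It is among the immediate-early genes by which the direction of the ratios was read. Its rise at 2 h was thus an input to that reading and is not a separate result. With PGE2 it fell in Ptger4+/+ cells by 0.57 on the log2 scale, read -0.09 and -0.22 in Ptger4-/- cells without passing (limma adjusted p = 0.42), and stood at 0.53 ± 0.04 in Ptger4-/- over Ptger4+/+ cells. Its part in the members' values was not tested.

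**Figure D5:**
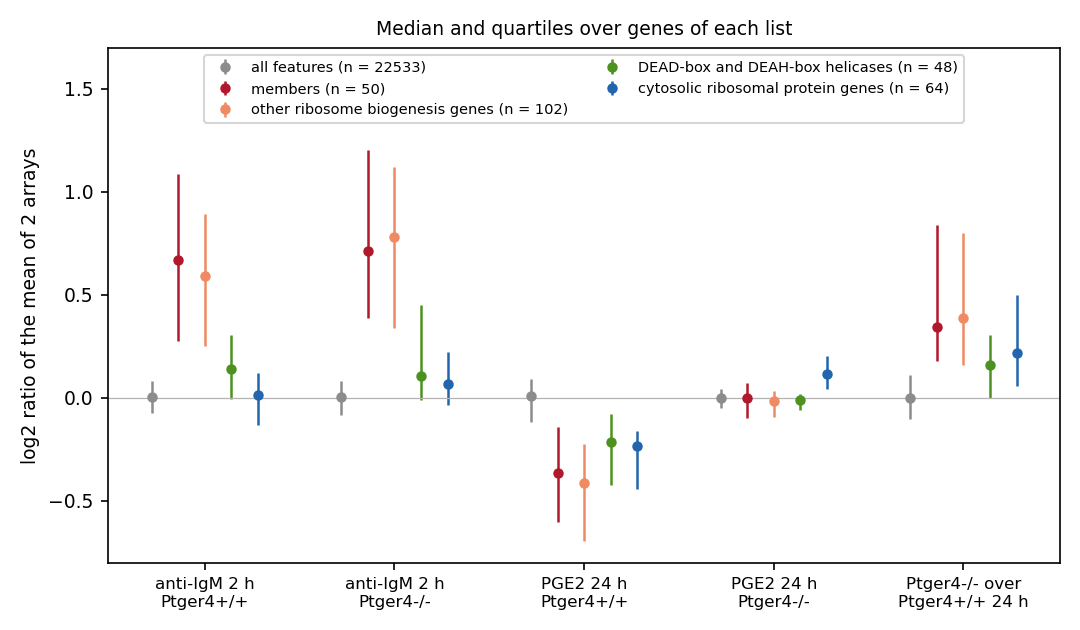
Median (points) and quartiles (bars) of the log2 ratios over all features and over the genes of 4 lists, for the 5 comparisons. Members and other ribosome biogenesis genes lie above the other lists with anti-IgM and below them with PGE2 in Ptger4+/+ cells, the ribosomal protein genes lie near 0 with anti-IgM (medians 0.01 and 0.07), and all lists lie near 0 with PGE2 in Ptger4-/- cells, with ribosomal protein genes highest at 0.12.

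B cell markers moved at 24 h as well. With PGE2 in Ptger4+/+ cells 3 of 8 rose, Cd79a at 0.92, Cd22 at 0.79 and Cd79b at 0.33, and 0 fell, while in Ptger4-/- cells Cd79a fell at -0.81. In Ptger4-/- over Ptger4+/+ cells the same 3 genes were lower, between -1.18 and -0.32. Of the 31 markers of other cells 2 rose and 1 fell with PGE2 in Ptger4+/+ cells, the macrophage marker Adgre1 most at 0.69, 0 were called in Ptger4-/- cells, and 3 were higher and 2 lower in Ptger4-/- over Ptger4+/+ cells. Of all features, 9.11% were called higher and 17.0% lower with PGE2 in Ptger4+/+ cells, and 0.00888% and 0.138% in Ptger4-/- cells. Between genotypes the shares were 15.9% and 11.0%. The counts of the markers of other cells were under these shares. The part of the marker values in the members' values was not tested.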

How the data were processed

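RNA was amplified, labelled with Cy3 and Cy5 and hybridised per the labels' protocols, and the authors deposited 1 value per probe and array, taken here as a log2 ratio of Cy5 over Cy3. The scanner's processing and normalization, the log base and the direction are not stated in these sources. Signal intensities were not used. The 10 arrays had 25344 probes without missing values and array medians of 0.000895 to 0.0148. GEO's probe annotation gave 21111 probes 1 symbol and 4233 none; 3974 symbols were updated through RefSeq genes, 17069 were current and 68 were kept. Probes of a gene were averaged, which left 22533 features. Each array was turned by its dye labels. Limma 3.58.1 in R 4.3.3 fitted 5 comparisons and a dye effect over all 10 arrays, with 7 contrasts (the 5 comparisons and the differences of the anti-IgM and PGE2 responses between genotypes), and p-values were adjusted by Benjamini-Hochberg over all features in each contrast. The number of arrays limits the precision.

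Members, roles and lists were chosen with earlier results of these data known. Named with values were, in each role class and comparison, up to 4 called members with the largest rise and 4 with the largest fall, members against the common direction, members called in a difference between genotypes, and members whose probes disagreed. Other named genes were chosen after their values were seen. The fit was tested on simulated data, but no outcome of that test is given here and no result rests on it. Alternatives were the dye term, centring, scaling, the probe rule, the arrays fitted, a 1.5-fold minimum, a limit of 0.01, membership by current symbol, natural logs, and leaving out each array; 1 more, leaving out the 3 members outside the pathway, was added after seeing the data. Promoters came from RefSeq.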

Additional observations from a re-analysis of the deposited data

Results flagged for a closer look

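The results below are members for which the test of the difference between genotypes passed, Ptger4-/- minus Ptger4+/+ on the log2 scale. For the anti-IgM response these were Nop58 at 0.76 and Nop56 at 0.72. For the PGE2 response Gnl3 differed by 1.71, Nop56 by 1.53, Exosc8 by 1.23 and Utp18 by 1.11. Nolc1 differed by 1.06, Utp6 by 1.05, Nol7 by 0.97 and Nop58 by 0.82. Smaller positive differences were Ppan at 0.80, Rrs1 at 0.76, Ncl at 0.76, Odc1 at 0.66, Utp20 at 0.63. The smallest that passed were Exosc6 at 0.54, Exosc9 at 0.49, Exosc3 at 0.47, Polr1e at 0.43, Fbl at 0.36 and Exosc2 at 0.34. The Exosc3 probes disagreed, at -0.80 and 0.06 with PGE2 in Ptger4+/+ cells and at 0.11 and 0.1 in Ptger4-/- cells. Nol6 alone was lower, at -0.74, with arrays of opposite sign in Ptger4+/+ cells (0.57 and -0.14) and of one sign in Ptger4-/- cells (-0.82 and -0.24).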

How the results depend on the processing

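No called mean over a gene's probes changed its sign under the alternatives run. Single probes did: Nol9 had one at -0.16 with anti-IgM in Ptger4+/+ cells, Exosc3 one at 0.06 with PGE2 in Ptger4+/+ cells, and between genotypes Exosc1 had one at -0.12, Exosc3 at -0.04, Nip7 at -0.07 and Nol9 at -0.03, none of them called. Of the genes added by current symbol, Nol4l had 2 probes called in opposite directions with PGE2 in Ptger4+/+ cells, at 0.52 and -1.07, and between genotypes, at -0.28 and 1.16. The median anti-IgM difference, 0.06, went to -0.03 without replicate 2 of the Ptger4+/+ comparison. Without the dye term the fall of Nol6 between genotypes and the 2 differences of the anti-IgM responses were lost (0 each), and the differences of the PGE2 responses were 11 higher and 0 lower. With arrays centred and scaled, 20 members fell with PGE2 in Ptger4+/+ cells and 1 in Ptger4-/- cells, 1 differed in the anti-IgM response and 12 were higher in the PGE2 difference. Fitting only the arrays compared also left out the dye term. It gave 0 falls with anti-IgM in Ptger4+/+ cells, 11 falls with PGE2, 18 higher and 0 lower between genotypes, 0 differences of the anti-IgM responses, and 4 higher and 0 lower of the PGE2 responses. Its fewer arrays and its missing dye term were not told apart. A tested minimum of 1.5-fold gave 14 rises and 0 falls with anti-IgM in Ptger4+/+ cells, 17 rises in Ptger4-/- cells, 4 falls with PGE2, 11 higher and 0 lower between genotypes, 0 differences of the anti-IgM responses, and 3 higher and 0 lower of the PGE2 responses. A limit of 0.01 left 0 falls with anti-IgM in Ptger4+/+ cells, 21 falls with PGE2 and 0 differences of the anti-IgM responses. With members by current symbol 1 fell with anti-IgM in Ptger4-/- cells. Read as natural logs, the medians became 0.97 and 1.03 with anti-IgM, -0.53 with PGE2 in Ptger4+/+ cells, 0.50 between genotypes and 0.50 for the PGE2 difference. The cause was not tested, except that a stricter limit and a minimum fold pass fewer genes by construction.

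Leaving out each array in turn gave these ranges. With anti-IgM, 30 to 40 members rose and 0 to 1 fell in Ptger4+/+ cells (median 0.57 to 0.81), and 35 to 41 rose and 0 to 1 fell in Ptger4-/- cells (median 0.72 to 0.78). With PGE2, 0 to 1 rose and 14 to 33 fell in Ptger4+/+ cells (median -0.45 to -0.28), and 0 were called in Ptger4-/- cells (median -0.013 to 0.034). Between genotypes 18 to 35 were higher and 0 to 1 lower (median 0.29 to 0.42). The anti-IgM differences were 0 to 2 higher and 0 lower (median -0.03 to 0.17), and the PGE2 differences 8 to 23 higher and 0 to 2 lower (median 0.25 to 0.41). A comparison left with 1 array was assumed to vary like the others. Each value is a ratio of 2 groups on 1 array, so the groups of a comparison are paired within arrays. Arrays of different comparisons could not be paired, because the labels give no replicate numbers. Replicates 1 and 2 are numbers assigned here, and they are arrays 1 and 2 of a comparison.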
